A study of Homo sapiens with 11 samples.

Results

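The genes described here are interferon-stimulated genes, measured in 2 lung adenocarcinoma cell lines made to carry TRIM58 or an empty vector. The list holds 42 genes chosen by name, of which 40 had a probe that could be named, out of 20249 named genes on the array. SAMD9L and IFI27 have no value here. For each gene the brightest probe over all 11 arrays was read. A549 and HCC827 are established human lung adenocarcinoma lines. Per the methods, cells were infected with the retroviral vector pMXs-Neo, either empty (mock) or carrying the coding sequence of wild-type TRIM58 with a FLAG tag (TRIM58-WT). They were then selected with G418, which all groups share, and the methods then describe isolated clones. A legend of the study calls the HCC827 mock transfectants crude and the A549 cells clones, and which of these each array holds is not given in the labels. TRIM58 is a putative E3 ubiquitin ligase of the tripartite motif family, and the study asked what its restored expression changes in these cells. The A549 mock group held 3 replicates on 4 arrays, since arrays 1-1 and 1-2 carry the same control cell in the labels and were averaged. A549 TRIM58-WT held 3 replicates, and both the mock and the TRIM58-WT group of HCC827 held 2. Nothing in the labels says whether replicates were separate infections, so p-values measure the spread between these samples, which may be technical. In bulk RNA, fewer cells of a kind and less RNA per cell cannot be told apart.

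Type I and type III interferons bind receptors that activate the kinases JAK1 and TYK2. These phosphorylate transcription factors, among them STAT2, which joins IRF9 in a complex that binds the interferon-stimulated response element (ISRE) in promoters. The genes switched on in this way encode sensors of foreign nucleic acid, enzymes that block translation or degrade RNA, GTPases and membrane proteins that stop viruses, and the ubiquitin-like protein ISG15. Lung epithelial cells respond to interferon through this route, and tumor cells can express the same genes without infection.

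The ISRE core was searched as GAAANNGAAA on both strands, overlapping matches included, in RefSeq promoter windows from 250 bases before to 50 bases after the start of each gene (GRCh38.p14). A window was found for 33 of the 42 listed genes, and 21 of these windows (63.6%) held a match, against 3.65% of all 27305 windows. A match is a description of the letters and not a shown binding site, and a window without a match is not shown to lack one. The stretches below lie before the start site, with each match in capitals. They are examples from members whose array values are given below, chosen after those values were seen. They lie at chr1:1013344-1013439 (plus strand) for ISG15, chr10:89392467-89392569 (plus strand) for IFIT1, chr1:27672236-27672388 (minus strand) for IFI6, chr19:17405705-17405800 (minus strand) for BST2 and chr12:112938291-112938473 (plus strand) for OAS3. OAS1, the member with a called change in A549, had no match to these letters in its window, and its 100 bases before the start, at chr12:112906862-112906961 (plus strand), are given for comparison.
ISG15: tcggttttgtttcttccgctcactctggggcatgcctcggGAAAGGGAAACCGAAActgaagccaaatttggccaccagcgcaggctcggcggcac
IFIT1: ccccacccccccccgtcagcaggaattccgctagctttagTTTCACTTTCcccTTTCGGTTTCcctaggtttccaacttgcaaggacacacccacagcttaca
IFI6: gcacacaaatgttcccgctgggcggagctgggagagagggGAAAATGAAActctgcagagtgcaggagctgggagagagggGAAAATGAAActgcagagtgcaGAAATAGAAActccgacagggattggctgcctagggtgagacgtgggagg
BST2: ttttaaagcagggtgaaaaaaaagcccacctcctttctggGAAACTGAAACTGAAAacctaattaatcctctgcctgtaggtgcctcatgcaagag
OAS3: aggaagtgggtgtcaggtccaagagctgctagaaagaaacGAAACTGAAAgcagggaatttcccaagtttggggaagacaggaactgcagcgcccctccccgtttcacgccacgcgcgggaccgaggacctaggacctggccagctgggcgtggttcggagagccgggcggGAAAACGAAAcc
OAS1: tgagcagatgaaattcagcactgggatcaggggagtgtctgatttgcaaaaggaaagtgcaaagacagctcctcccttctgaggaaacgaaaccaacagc

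Values are log2 signals relative to the 75th percentile of the array, so 0 is the level below which 75% of the probes lie. The TRIM58 probe read -5.28, -5.33, -5.18 and -0.71 on the A549 mock arrays 1-1, 1-2, 2 and 3, and -4.84, -4.63 and -4.63 on the arrays labelled TRIM58-WT. It was well above background on the array labelled mock replicate 3 alone among the 11. The vector holds the coding sequence only and the place of the probe in the transcript was not analysed here, so this reading goes against the labels without settling them. KRT19, an epithelial keratin, placed the same array with the other mock arrays, at 7.30, 7.30, 7.52 and 6.11 on the A549 mock arrays 1-1, 1-2, 2 and 3 and -2.56, -2.47 and -2.56 on the TRIM58-WT arrays. The epithelial keratins KRT8 and KRT18 were well above background on all 11 arrays. Of 5 epithelial markers 3 were nevertheless called lower in A549 TRIM58-WT, against 4.06% of all genes. Their median log2 change was -2.33, and 0 of 5 lay above 0. In HCC827 0 of 5 were called. Of 4 lung epithelial markers, 0 were well above background throughout an A549 group and 1 throughout an HCC827 group. Of the other cell type markers, 4 of 4 endothelial genes and 4 of 5 fibroblast genes were not well above background on any array. The exception was LUM, at 0.07, 0.07, -0.07 and -4.18 on the A549 mock arrays 1-1, 1-2, 2 and 3. Among the leukocyte markers CD3E and ITGAM were not well above background on any array, and CD14 read 0.81, 0.68, 0.84 and 0.93 on the A549 mock arrays 1-1, 1-2, 2 and 3. In A549 591 probes were called higher and 580 lower in TRIM58-WT, and with arrays scaled by their median instead 285 and 828. The same scaling moved the median change of all genes in A549 from 0.03 to -0.34.

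In A549 the interferon-stimulated genes were high in mock replicates 1 and 2 and low in mock replicate 3 and in all 3 TRIM58-WT replicates. Of the 40 members, 40, 40 and 39 were well above background on mock arrays 1-1, 1-2 and 2, against 23 on mock replicate 3 and 31, 22 and 24 on TRIM58-WT replicates 1 to 3. Over all named genes that share was 54.5% to 62.9% on the A549 arrays. Mock replicate 3 lay below both other mock replicates for 39 of 40 members, the exception being GBP2, while 27.6% of all genes did so. The median over members of mock replicate 3 minus the mean of replicates 1 and 2 was -2.74, with a range from -7.58 to -0.25, and the median over all genes was 0.27. Mock arrays 1-1 and 1-2, which lie on different slides, differed by a median of 0.09 and by at most 0.44 over the members. For 17 members mock replicate 3 fell within the range of the TRIM58-WT replicates, for 16 below it and for 7 above it. Those 7 were IRF1, IRF7, DHX58, OAS1, OAS3, USP18 and DTX3L. TRIM58-WT replicate 1 lay above replicates 2 and 3 for 32 of 40 members, against 41.1% of all genes. It shared a slide with mock arrays 1-1 and 2. Every HCC827 array also lay on that slide, and the main fits between lines held no term for slide. Mock array 1-2, mock replicate 3 and TRIM58-WT replicates 2 and 3 shared the other slide. Brightness divided the A549 arrays another way. Before scaling, mock replicate 3 and TRIM58-WT replicates 2 and 3 had 75th percentile signals of 60.29, 62.48 and 56.58. The brighter arrays, mock 1-1, mock 1-2, mock 2 and TRIM58-WT replicate 1, had 97.99, 102.9, 90.49 and 96.65. Deviations of mock replicate 3 correlated with those of TRIM58-WT replicates 1 to 3 at -0.59, 0.57 and 0.50. Whether signal level has a part in the member pattern was not tested.

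**Figure D1:**
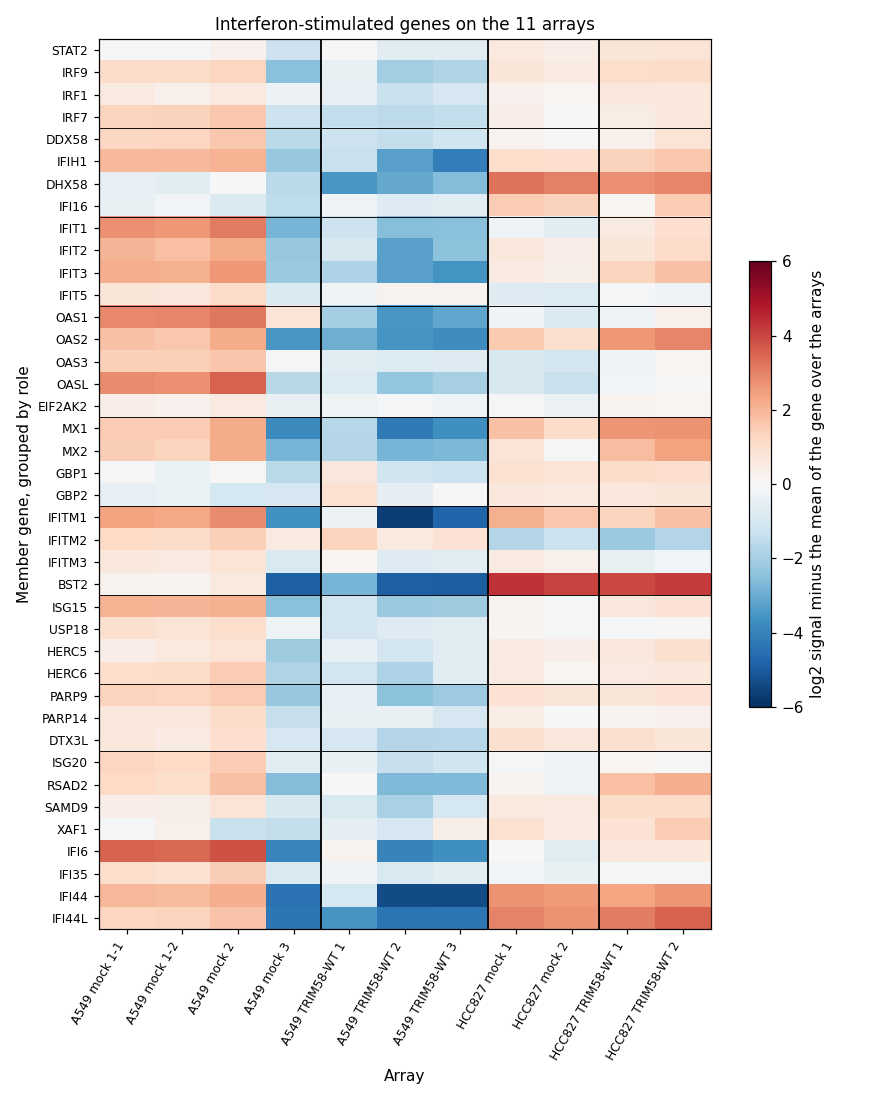
Colour gives the log2 signal of each of 40 members (rows, grouped by role) on each of 11 arrays (columns), minus the mean of that gene over the arrays. The A549 mock arrays 1-1, 1-2 and 2 are red for most members, while mock 3 and the 3 A549 TRIM58-WT arrays are blue.

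**Figure D2:**
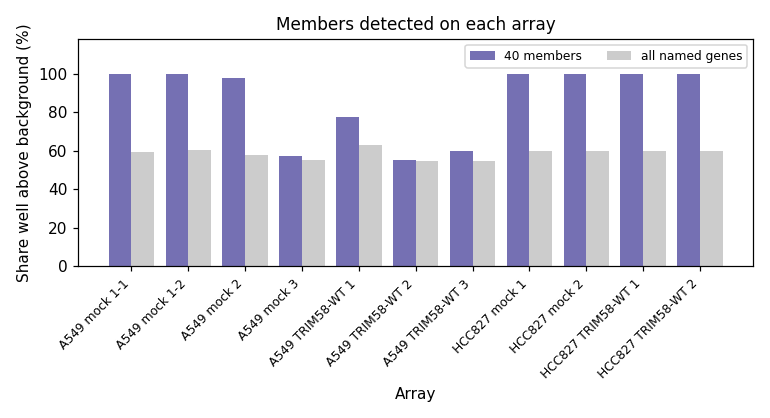
Bars give the share of the 40 members and of all named genes that were well above background on each array, in percent. Members fell to 57.5% on A549 mock 3 and ranged from 55% to 77.5% across A549 TRIM58-WT arrays, and stood at 100% on all 4 HCC827 arrays.

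With all replicates, 25 members passed the filter on dim probes in A549 (all arrays of either group clearly over background), and 1 was called, OAS1, which was lower. Over all genes tested, 4.06% were called lower. At an unadjusted p under 0.05, 9 of the 25 members passed, against 25.3% of all probes tested. The median log2 change of the 25 members was -1.68, beside 0.03 for all genes, and 2 of the 25, IFI16 and GBP2, lay above 0. Under the median scaling the member median was -2.05 beside -0.34 for all genes. The 15 members that did not pass were not well above background on mock replicate 3, and XAF1 was not on mock replicate 2 either. Over all 40 members the mean of TRIM58-WT lay below that of mock for 37, and the groups did not overlap, with TRIM58-WT lower, for 7, against 10.8% of all genes.

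Without mock replicate 3 the count was 29 of 39 members called lower, none higher, and a median of -2.74, with 7.37% of all genes called lower. That array was set apart by the low values of these same members. Leaving it out therefore made lower calls more likely in advance. The p-values and counts without it, here and below, describe the remaining arrays and are no independent support for a change. Of these 29 calls, 17 were among the 25 members tested with all replicates, and 12 among the 14 that entered only once that array was left out and that therefore had to be high in mock. For 8 members no TRIM58-WT array was well above background, and with these set at their bound the median was -2.39. The bounds of DHX58, HERC6 and SAMD9, which are among the 29, were 1.98-, 1.91- and 1.57-fold. These lie under the 2-fold threshold, so their calls rest on TRIM58-WT signals not well above background. Without mock replicate 1, TRIM58-WT replicate 2 or TRIM58-WT replicate 3 no member was called, and without mock replicate 2 or TRIM58-WT replicate 1 OAS1 alone was called. On the arrays of slide 1 alone, which hold no array of mock replicate 3, 27 of 39 members were called lower, against 7.73% of all genes, and on slide 2 alone OAS1 was called. As without mock replicate 3, members entered that fit that had failed the filter on dim probes with all replicates. Slide 1 holds 1 TRIM58-WT array, which that fit assumes to vary as the mock arrays do. TRIM58 was well above background on the array of mock replicate 3, as given above, and the part of this in the result was not tested.

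In HCC827 all 40 members were well above background on every array and differences were smaller and mostly of the opposite sign. The log2 difference was above 0 for 31 of 40 members, with a median of 0.40 beside 0.01 for all genes. No member was called by limma, against 0.328% of all genes called higher and 0.739% called lower. At an unadjusted p under 0.05, 15 members lay higher and 1 lower in TRIM58-WT, beside 20.3% of all probes in either direction, and the methods' t-test called none. Both TRIM58-WT replicates lay above both mock replicates for 25 members, against 23.9% of all genes. Both lay below them for 2 members, DHX58 and IFITM3, against 25.7% of all genes. Mock replicate 1 lay above mock replicate 2 for 39 of 40 members, against 47.1% of all genes, so the members also moved together between replicates of 1 group. With arrays scaled by their median, 7 members were called higher, against 1.56% of all genes, namely RSAD2, MX2, OAS2, MX1, IFIT1, IFIT3 and OASL. With only probes well above background on every array tested, 3 were called higher, RSAD2, OAS2 and OASL, against 1.12% of all genes.

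**Figure D3:**
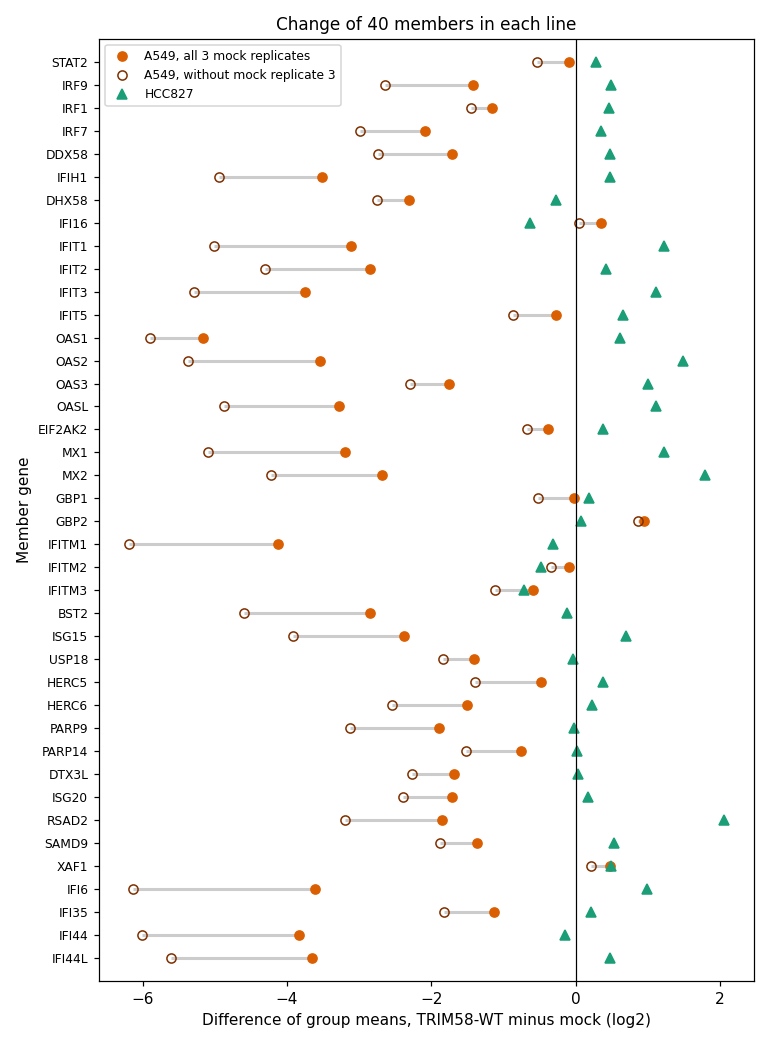
Points give the difference of group means (TRIM58-WT minus mock, log2) for each of 40 members in A549 with all mock replicates (filled circles), in A549 without mock replicate 3 (open circles) and in HCC827 (triangles), with grey bars joining both A549 values. A549 values lie left of 0 for 37 members and move further left without mock replicate 3, and HCC827 values lie right of 0 for 31.

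The transcription factors of the list carry the interferon signal to the promoters. IRF7, which amplifies interferon production, read 4.36 and 4.40 on the 2 arrays of A549 mock replicate 1, 4.63 on replicate 2 and 1.80 on replicate 3. On the TRIM58-WT arrays it read 1.54, 1.45 and 1.56. All TRIM58-WT values lay below all mock values, and the log2 change was -2.08 (SE 0.73, adjusted p = 0.14), or -2.98 (SE 0.17, adjusted p = 0.00074) without mock replicate 3. In HCC827 IRF7 read 3.42 and 3.01 in mock against 3.48 and 3.66 in TRIM58-WT. IRF9, the DNA-binding subunit of the complex with STAT2, read 2.21, 2.23, 2.42 and -1.37 on the A549 mock arrays 1-1, 1-2, 2 and 3, and 0.68, -0.95 and -0.71 in TRIM58-WT. Mock replicate 3 was thus the lowest of the A549 arrays for IRF9. IRF1, an early-induced factor, did not overlap between A549 groups either, with a change of -1.15 (SE 0.33, adjusted p = 0.086). STAT2, which brings the activation domain to the complex, differed least, by -0.09 with all replicates and -0.53 without mock replicate 3. In HCC827 all 4 factors were higher in both TRIM58-WT replicates than in both mock replicates, as were 23.9% of all genes. The differences were 0.28 (STAT2), 0.36 (IRF7), 0.46 (IRF1) and 0.50 (IRF9), and none was called.

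The sensors of foreign nucleic acid differed in their baseline as well as in their change. DHX58, which encodes LGP2, a regulator of RNA sensing, read -1.84 and -1.96 on the 2 arrays of A549 mock replicate 1, -1.38 on replicate 2 and -2.97 on replicate 3, and -4.83, -4.40 and -3.96 on the TRIM58-WT arrays, none of which was well above background. In HCC827 it read 1.90 and 1.67 in mock against 1.41 and 1.61 in TRIM58-WT. The HCC827 mock level was therefore higher than any A549 level, with A549 mock minus HCC827 mock at -3.87 (SE 0.44, adjusted p = 0.00018). DDX58, which encodes the RNA sensor RIG-I, read 0.92, 0.99, 1.30 and -1.93 on the A549 mock arrays 1-1, 1-2, 2 and 3 and -1.55, -1.77 and -1.52 in A549 TRIM58-WT, a change of -1.72 (SE 0.82, adjusted p = 0.26) or -2.74 (SE 0.20, adjusted p = 0.0015) without mock replicate 3. IFIH1, which encodes the RNA sensor MDA5, was well above background on mock replicates 1 and 2 and on TRIM58-WT replicate 1 in A549, and in HCC827 its change was 0.47. IFI16, a DNA sensor, was the exception among sensors, with changes of 0.36 (SE 0.34, adjusted p = 0.57) in A549 and -0.63 (SE 0.50, adjusted p = 0.50) in HCC827. Its HCC827 TRIM58-WT replicates lay far apart, at -0.57 and 0.85.

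The IFIT proteins bind foreign RNA and hold back translation. IFIT1 read 5.50 and 5.38 on the 2 arrays of A549 mock replicate 1, 5.90 on replicate 2 and -0.02 on replicate 3. On the TRIM58-WT arrays it read 1.52, 0.20 and 0.25. The spread of the mock group, 3.77 ± 3.29 (SD, n = 3), was wider than the difference between groups, and the change was -3.12 (SE 1.54, adjusted p = 0.27). Without mock replicate 3 it was -5.01 (SE 0.47, adjusted p = 0.0034). In HCC827 IFIT1 read 2.55 and 2.12 in mock against 3.31 and 3.79 in TRIM58-WT, a difference of 1.22 (SE 0.25, adjusted p = 0.11). IFIT3 gave changes of -3.75 (SE 1.29, adjusted p = 0.13) in A549 and 1.11 (SE 0.20, adjusted p = 0.094) in HCC827, and IFIT2 gave -4.30 (SE 0.69, adjusted p = 0.017) in A549 without mock replicate 3, where a second, dimmer IFIT2 probe gave -1.49 and was not called. IFIT5 stood closer to its mock level, with TRIM58-WT at 0.95, 1.40 and 1.40 against 0.34 on mock replicate 3, and was not called with or without that array.

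The OAS enzymes make the second messenger that activates RNase L, and this group held the called member. OAS1 read 3.21 and 3.23 on the 2 arrays of A549 mock replicate 1, 3.47 on replicate 2 and 1.11 on replicate 3. On the TRIM58-WT arrays it read -1.69, -3.19 and -2.79, not well above background on any of them. Mock replicate 3 was lower than the other mock arrays yet higher than every TRIM58-WT array. OAS1 was at least 28.8-fold lower in TRIM58-WT, with a mock mean of 2.60 ± 1.29 (SD, n = 3) and a measured TRIM58-WT mean of -2.56 ± 0.77 (SD, n = 3), a fitted change of -5.16 (SE 0.70, adjusted p = 0.011). The bound sets the mock mean against the lowest signals that counted as well above background, or the own signal of the probe where that was higher. Leaving out 1 replicate at a time gave adjusted p-values from 0.0021 to 0.06, so the call ended without mock replicate 1, TRIM58-WT replicate 2 or TRIM58-WT replicate 3.

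OAS3 read 2.74, 2.74, 2.99 and 1.25 on the A549 mock arrays 1-1, 1-2, 2 and 3, and 0.67, 0.48 and 0.57 in TRIM58-WT. Its groups did not overlap either, and the change was -1.75 (SE 0.45, adjusted p = 0.065). OAS2 read 1.04, 0.86, 1.50 and -4.22 on the A549 mock arrays 1-1, 1-2, 2 and 3 with no TRIM58-WT array well above background, so that without mock replicate 3 it was at least 14.5-fold lower in TRIM58-WT (adjusted p = 0.00082). OASL, which lacks the enzyme activity and helps RNA sensing, gave -3.27 (SE 1.33, adjusted p = 0.19) with all replicates and -4.88 (SE 0.51, adjusted p = 0.0048) without mock replicate 3. EIF2AK2, which encodes PKR, a kinase that stops translation on double-stranded RNA, varied least in this group, at 4.32, 4.17, 4.47 and 3.49 on the A549 mock arrays 1-1, 1-2, 2 and 3 and 3.59, 3.78 and 3.66 in TRIM58-WT. In HCC827 the differences of the 5 genes ran from 0.39 for EIF2AK2 through 0.61 for OAS1, 1.00 for OAS3 and 1.11 for OASL to 1.49 for OAS2. For OAS2 that was 0.84 and 0.22 in mock against 1.85 and 2.18 in TRIM58-WT (adjusted p = 0.097).

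**Figure D4:**
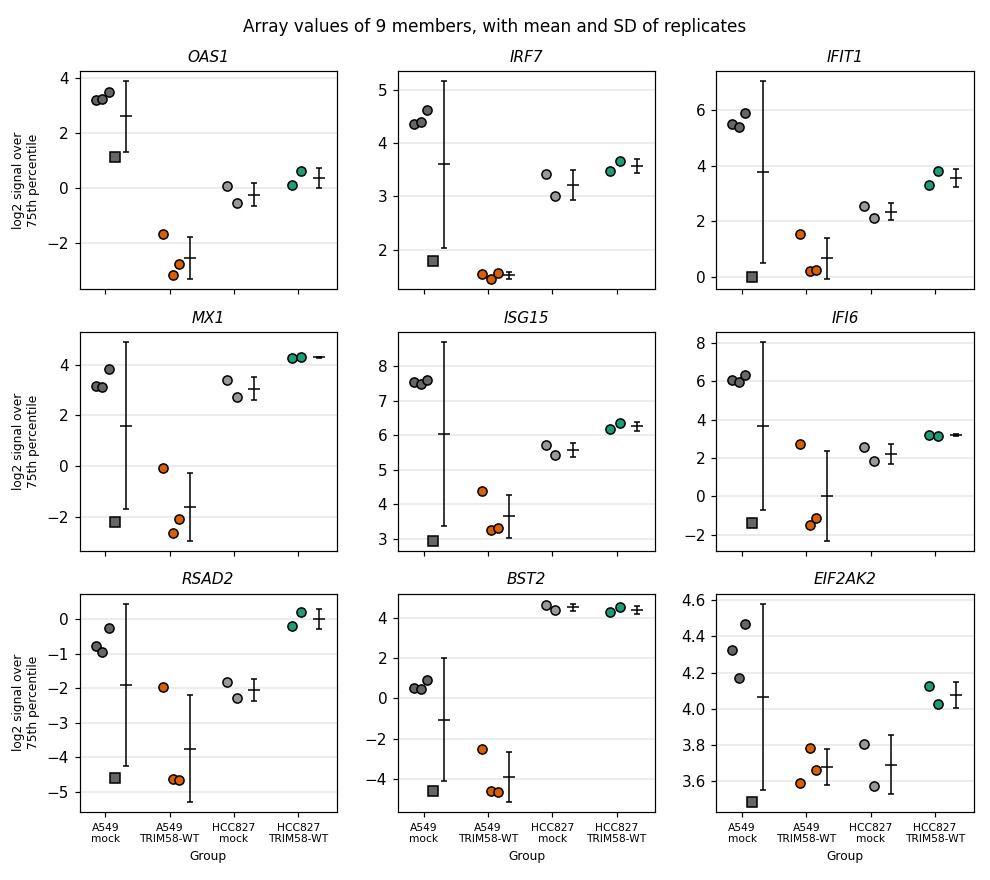
Points give the log2 signal over the 75th percentile of each array for 9 members in the 4 groups, the square marks A549 mock replicate 3, and the bar beside each group gives the mean and SD of its replicates. For IFIT1, MX1, ISG15, IFI6, RSAD2, BST2 and EIF2AK2 the square lies within or below the range of the A549 TRIM58-WT points, and for OAS1 and IRF7 between those and the other mock points.

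The MX proteins are dynamin-like GTPases that trap viral components, and the GBP proteins are GTPases best known downstream of interferon gamma. MX1 read 3.15 and 3.13 on the 2 arrays of A549 mock replicate 1, 3.84 on replicate 2 and -2.19 on replicate 3. On the TRIM58-WT arrays it read -0.09, -2.64 and -2.07, and without mock replicate 3 the change was -5.09 (SE 0.80, adjusted p = 0.016). In HCC827 MX1 read 3.38 and 2.74 in mock against 4.28 and 4.30 in TRIM58-WT. MX2 was not well above background on mock replicate 3 or on any A549 TRIM58-WT array, and was at least 6.23-fold lower in TRIM58-WT without mock replicate 3 (adjusted p = 0.0041). In HCC827 MX2 read -1.04 and -1.87 and 0.07 and 0.61, a difference of 1.80 (SE 0.35, adjusted p = 0.11). GBP1 read -1.70, -1.97, -1.48 and -3.18 on the A549 mock arrays 1-1, 1-2, 2 and 3 and -0.90, -2.77 and -2.88 in TRIM58-WT, so that mock replicate 3 and TRIM58-WT replicates 2 and 3 lay below the other mock arrays and TRIM58-WT replicate 1 above them. GBP2 lacked the drop on mock replicate 3. It read -1.95, -1.84, -2.48 and -2.44 on the A549 mock arrays 1-1, 1-2, 2 and 3 and -0.54, -2.03 and -1.41 in TRIM58-WT, and without mock replicate 3 the change was -0.53 for GBP1 and 0.86 for GBP2, neither called. Their HCC827 differences were 0.19 and 0.08.

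Membrane restriction factors block virus entry or hold budding particles at the surface, and in HCC827 this was the group whose 4 members all lay below 0. BST2, which encodes tetherin, read 0.50 and 0.47 on the 2 arrays of A549 mock replicate 1, 0.91 on replicate 2 and -4.57 on replicate 3. On the A549 TRIM58-WT arrays it read -2.49, -4.60 and -4.62, with only replicate 1 well above background. In HCC827 it read 4.64 and 4.37 in mock against 4.25 and 4.53 in TRIM58-WT. A549 mock minus HCC827 mock was -5.57 (SE 1.48, adjusted p = 0.016), the widest gap among members with all replicates. Without mock replicate 3 it was -3.81, and OASL and IFI6 then had wider gaps, at 4.31 and 3.97. IFITM1 read 4.27, 4.14, 4.65 and -1.78 on the A549 mock arrays 1-1, 1-2, 2 and 3 and 1.50, -3.82 and -2.96 in TRIM58-WT, with changes of -4.12 (SE 2.09, adjusted p = 0.28) in A549 and -6.19 (SE 1.62, adjusted p = 0.065) without mock replicate 3, since the TRIM58-WT replicates were themselves spread widely. IFITM3 changed by -0.59 (SE 0.50, adjusted p = 0.53) in A549 and by -0.72 (SE 0.18, adjusted p = 0.15) in HCC827. IFITM2 read 4.75, 4.65, 4.96 and 4.07 on the A549 mock arrays 1-1, 1-2, 2 and 3, and 4.90, 4.16 and 4.40 in TRIM58-WT, and overlapped between groups with and without mock replicate 3. The transcripts of IFITM1, IFITM2 and IFITM3 are close in sequence, and cross-hybridisation of their probes was not tested.

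ISG15 is a ubiquitin-like protein, HERC5 its main ligase and USP18 the protease that removes it and dampens receptor signalling. ISG15 read 7.56 and 7.50 on the 2 arrays of A549 mock replicate 1, 7.62 on replicate 2 and 2.95 on replicate 3. On the TRIM58-WT arrays it read 4.38, 3.27 and 3.33, and mock replicate 3 was again the lowest A549 array. The change was -2.37 (SE 1.25, adjusted p = 0.30) with all replicates and -3.91 (SE 0.38, adjusted p = 0.0038) without mock replicate 3. In HCC827 it read 5.71 and 5.42 in mock against 6.17 and 6.35 in TRIM58-WT, a difference of 0.70 (SE 0.17, adjusted p = 0.14). USP18 read 2.11, 1.97, 2.21 and 0.82 on the A549 mock arrays 1-1, 1-2, 2 and 3 and 0.04, 0.36 and 0.44 in TRIM58-WT. Its A549 groups did not overlap, with a change of -1.41 (SE 0.38, adjusted p = 0.075), while its HCC827 difference was -0.04. HERC5 and HERC6, a relative of HERC5, were dim on mock replicate 3 and on most or all TRIM58-WT arrays. Without mock replicate 3 HERC5 changed by -1.40 (SE 0.25, adjusted p = 0.024), and HERC6 was at least 1.91-fold lower (adjusted p = 0.014).

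PARP9 and DTX3L form a complex that joins ADP-ribosylation with ubiquitination, and PARP14 is a further ADP-ribosyltransferase. DTX3L read 0.84, 0.72, 1.21 and -0.77 on the A549 mock arrays 1-1, 1-2, 2 and 3 and -0.81, -1.52 and -1.49 in TRIM58-WT, without overlap, a change of -1.68 (SE 0.53, adjusted p = 0.11). PARP9 changed by -1.90 (SE 1.09, adjusted p = 0.34) and PARP14 by -0.76 (SE 0.64, adjusted p = 0.52) with all replicates, and by -3.13 and -1.51 without mock replicate 3, both then called. In HCC827 these 3 genes stayed within -0.02 to 0.03.

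Among the remaining members, IFI6, a small mitochondrial and ER protein, had the widest gap inside the mock group. It read 6.06 and 5.98 on the 2 arrays of A549 mock replicate 1, 6.34 on replicate 2 and -1.40 on replicate 3. On the TRIM58-WT arrays it read 2.73, -1.48 and -1.13, so that replicate 1 stood between the 2 levels. The A549 change was -3.61 (SE 2.26, adjusted p = 0.39), and -6.14 (SE 1.33, adjusted p = 0.04) without mock replicate 3. IFI44 and IFI44L were likewise high on mock replicates 1 and 2 and not well above background on replicate 3. IFI44L, for which no A549 TRIM58-WT array was well above background, was at least 12.7-fold lower without mock replicate 3 (adjusted p = 0.0008). For IFI44 the change in that fit was -6.00 (SE 1.42, adjusted p = 0.049). ISG20, an RNA exonuclease, changed by -1.71 (SE 0.60, adjusted p = 0.14) and IFI35 by -1.13 (SE 0.60, adjusted p = 0.30) with all replicates. SAMD9, a restriction factor of poxviruses, was at least 1.57-fold lower in TRIM58-WT without mock replicate 3 (adjusted p = 0.03). XAF1, a pro-apoptotic gene, was the 1 member untested in A549 either way.

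RSAD2, which encodes the antiviral enzyme viperin, had the largest difference in HCC827. It read -1.82 and -2.27 in mock against -0.20 and 0.21 in TRIM58-WT, a difference of 2.05 (SE 0.24, adjusted p = 0.057). Both TRIM58-WT values lay above both mock values by more than the spread within either group, and the adjusted p was the lowest of the 40 members. In A549 it read -0.78, -0.95, -0.24 and -4.61 on the A549 mock arrays 1-1, 1-2, 2 and 3 and -1.97, -4.63 and -4.66 in TRIM58-WT, and without mock replicate 3 the change did not pass the test (at least 3.44-fold lower, adjusted p = 0.078). The other HCC827 differences in this group ran from -0.14 for IFI44 to 0.99 for IFI6.

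The difference between the lines was tested directly, as the change in A549 minus the change in HCC827, over all 40 members. OAS1 was called, at a fitted -5.77 (SE 1.00, adjusted p = 0.02), and 2.5% of all genes were called in that direction. The A549 side of this value is a bound, since OAS1 was not well above background in TRIM58-WT. Leaving out 1 replicate at a time gave adjusted p-values from 0.0012 to 0.081, and the call ended without A549 mock replicate 1, A549 TRIM58-WT replicate 2 or 3, or any HCC827 replicate. OAS3 came next, at -2.75 (SE 0.64, adjusted p = 0.056). The median of the 40 differences was -1.98, beside 0.02 for all genes, and 4 of 40 lay above 0. At an unadjusted p under 0.05, 12 of 40 members passed, against 18.4% of all probes tested. Without A549 mock replicate 3, 31 of 40 members were called lower in A549, against 7.02% of all genes. That array was set apart by the values of the members themselves, so this count is a description.

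Between the mock groups 8 of 40 members were called, 3 higher in A549 (OAS1, OAS3 and IFITM2) and 5 lower (BST2, DHX58, IFI16, XAF1 and GBP2). Over all genes 15.4% were called higher in A549 and 16.5% lower. A second, dimmer DDX58 probe was called higher in A549 mock, at 4.87 (adjusted p = 0.00088), while the brightest was not called. With any probe of a gene counted, 9 members were called, 4 of them higher, beside 2041 of 12410 genes called higher. For OAS1 the A549 mock arrays given above stood against 0.05 and -0.56 in HCC827 mock, a difference of 2.86 (SE 0.71, adjusted p = 0.012). IFITM2 was 1.81 and 2.28 in HCC827 mock, and differed by 2.54 (SE 0.33, adjusted p = 0.0004). Without mock replicate 3 the count was 19, of which 14 were higher in A549, among them ISG15, IFIT1, IFIT3, IFI6 and OASL, against 16.9% of all genes called higher and 16.4% lower. On slide 1 alone it was 21, of which 16 were higher, against 17.9% and 17.6% of all genes. The 5 genes below HCC827 in the first of these 2 fits were DHX58, IFI16, GBP2, BST2 and IFI44L. BST2 and DHX58 were thus called lower in A549 mock with and without mock replicate 3. The calls of BST2 and GBP2 ended without either HCC827 mock replicate and that of OAS1 without HCC827 mock replicate 2, and XAF1 lost its call without A549 mock replicate 2 or 3 or any HCC827 replicate.

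The genes around the pathway were read from lists of names. Of 9 interferon genes listed, 8 had a probe. IFNB1, IFNL1, IFNL3, IFNG and IFNW1 were not well above background on any array. IFNL2 was well above background on mock arrays 1-1, 1-2 and 2 of A549 alone, at -2.49, -2.43 and -2.33, and IFNK on A549 TRIM58-WT replicate 1 alone. IFNE was well above background on some arrays of both lines. It averaged -2.92 ± 1.06 (SD, n = 3) in A549 mock, with mock replicate 3 the lowest at -4.14, and read -0.74, -4.49 and -4.53 in A549 TRIM58-WT. In HCC827 it read -2.87 and -2.29 in mock against -2.41 and -2.25 in TRIM58-WT, and it was not called in HCC827. Among 9 receptor and kinase genes none was called in A549 or HCC827. IFNAR1, IFNAR2, IL10RB, JAK1 and TYK2 were well above background on every array. Among 14 induction and signalling genes 1 of 9 tested was called in A549, CGAS, which encodes the DNA sensor that makes cyclic GMP-AMP. It read -1.79, 0.17 and -0.21 in TRIM58-WT and was not well above background on any A549 mock array, at least 4.86-fold higher in TRIM58-WT (adjusted p = 0.033). On leaving out 1 replicate at a time its adjusted p ran up to 0.15, and the call ended without mock replicate 1 or 2 or TRIM58-WT replicate 2 or 3. Of 6 negative regulators none was called in either line. Of 50 further interferon-induced genes 1 of 32 tested was called in A549, IFI30, a lysosomal thiol reductase, at -2.14 (SE 0.37, adjusted p = 0.021), and 0 of 43 in HCC827. The IFI30 call ended on leaving out the same 4 replicates, with adjusted p-values up to 0.10. Without A549 mock replicate 3, 20 of 40 of these were called lower and 0 higher, beside the 7.37% of all genes called lower. Of these calls 14 were among the 32 tested with all replicates, and 6 among 8 that entered only then and so had to be high in mock. Of the cell type markers, LUM was well above background on the 3 mock arrays where the members were high and on no other, and EPCAM read 2.73, 2.71, 2.78 and 0.59 on the A549 mock arrays 1-1, 1-2, 2 and 3 and averaged -2.85 ± 0.75 (SD, n = 3) in TRIM58-WT. Their part in the result was not tested.

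Members with and without the ISRE core in the promoter window were set side by side as a description. Of the members with a value, 20 had a match and 11 a window without one. Without mock replicate 3, the median A549 change was -3.15 over the 20 with a match and -2.59 over the 10 of 11 without one that were tested. Of these, 15 of 20 and 7 of 10 were called lower, against 7.37% of all genes. In HCC827 the medians were 0.43 and 0.46. OAS1 and RSAD2, which gave the called A549 change and the largest HCC827 difference, were both without a match to these letters, and the stretch of OAS1 shown above has none in capitals. The search fixed the spacing of the GAAA repeats. The bases before the start of both genes hold GAAACGAAA, where the repeats stand closer, so no match does not show that a site is absent.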

How the data were processed

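Per the methods and the labels, total RNA was labelled with Cy3 and hybridised in 1 colour to SuperPrint G3 arrays, and the authors analysed the data in Gene Spring with Benjamini-Hochberg adjustment and a 2-fold change. The authors made the deposited spot intensity values with Agilent Feature Extraction (10.7 in the submitters' processing notes, 11.5.1.1 in the file headers), which subtracted background and left arrays unscaled. A deposited table of log2 values by the authors served as an alternative, and the flag columns used are those of the scanner software, per the file headers.

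Outlier and control spots were dropped, the spots of each probe averaged, and log2 values centred on the 75th percentile of the 42405 probes per array. This left 28 values missing, whose probes were fitted on the remaining arrays, and no spot was saturated. A probe had to be flagged well above background in over 0.5 of its spots. Per array, 40.07% to 49.99% of probes were. RefSeq accessions, present on 28302 probes, named 27241. The number of arrays limits the precision.

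Tests used limma 3.58.1 (lmFit and eBayes) in R 4.3.3 on probes detected in this way throughout 1 or more of the compared groups, with Benjamini-Hochberg adjustment over all of them. A call needed an adjusted p under 0.05 and a 2-fold change, or the adjusted p alone for the difference between lines, which was fitted over all 4 groups. The steps were tested on simulated data. Figures were drawn with matplotlib 3.10.9.

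The members, roles, lists and naming rule were chosen with earlier results of these data known. The rule gives array values for called members and the 3 members with the widest called gap between the mock groups (OAS1, BST2 and DHX58). The other members given array by array were chosen after their values were seen, as were EPCAM, LUM and CD14. Some genes of the lists are not reported here. Same-numbered A549 replicates had correlated deviations of 0.50, -0.42 and 0.50, so the numbers were not taken as pairs. Alternatives were quantile, median and normexp scaling, no filter, a filter on every array, the authors' log2 table, other uses of several probes and of mock arrays 1-1 and 1-2, replicate number and slide as blocks, the methods' t-test, all groups in 1 fit, the mock groups or slide 1 alone, and each replicate left out. For A549, fits within each slide were added after the data were seen.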

Additional observations from a re-analysis of the deposited data

Results flagged for a closer look

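OAS1 differed between the lines by the test of the difference itself, with the change in A549 minus the change in HCC827 at -5.77 (adjusted p = 0.020, limma over 10 replicates). It was lower in 3 of 3 A549 TRIM58-WT replicates than in every mock replicate and higher in 2 of 2 HCC827 ones. The call ended on leaving out any 1 of 7 of the 10 replicates, with adjusted p-values from 0.0012 to 0.081 over these 10 fits.

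IRF1, IRF7 and OAS3 were also lower in every A549 TRIM58-WT replicate than in every mock replicate and higher in both HCC827 ones. With OAS1 these were 4 of 40 members. Over all genes 10.8% were lower in this way in A549 and 23.9% higher in HCC827, and the share with both was not counted. The tests of their differences did not pass, at -1.61 for IRF1 (adjusted p = 0.10), -2.44 for IRF7 (adjusted p = 0.25) and -2.75 for OAS3 (adjusted p = 0.056).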

How the results depend on the processing

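In A549 the main fit called 454 of 11186 genes lower. A median shift called 640 lower and slide as a block 688. Mock arrays 1-1 and 1-2 as 2 replicates gave 652, and all 4 groups in 1 fit 610. The count of 1 member called became 9 under a median shift and 7 with slide as a block and mock arrays 1-1 and 1-2 kept apart. It became 5 with those arrays as 2 replicates, though they carry the same control cell in the labels, and 5 with all 4 groups in 1 fit. It became 0 with a filter on every array or by the methods' t-test, and leaving out 1 replicate gave 0 to 29. Within slide 1, added after the data were seen, it was 27. In HCC827 the count of 0 became 7 under a median shift and 3 with a filter on every array, and stayed 0 without any 1 replicate. Of 12831 genes tested for the difference between lines, 321 were called lower in A549, 291 under a median shift and 410 under normexp. For this difference the count of 1 member became 2 under a median shift, 2 under normexp and 0 with a filter on every array. On leaving out 1 replicate it was 0 to 31. The 0 came from leaving out A549 mock replicate 1, A549 TRIM58-WT replicate 2 or 3, or any HCC827 replicate. Between the mock groups 8 became 3 with a filter on every array and 21 on slide 1 alone, with 4 to 19 on leaving out 1 replicate, the lowest counts coming without HCC827 mock replicate 2 (4) or 1 (5). The cause of these shifts was not tested, except that a filter on every array tests fewer members (20 in A549). With the replicate number as a block 1 member was called in A549 and 0 in HCC827, as without it. The correlation between same-numbered HCC827 replicates was 0.08, and with 2 replicates per group it cannot show whether they were paired. The median change of members ranged from -2.74 to -1.05 in A549 and from 0.25 to 0.52 in HCC827 over the alternatives. Of 2353 values of single members under the alternatives none that was called changed sign, 123 gained a call and 31 lost one. Dim signals on the A549 TRIM58-WT arrays limit 8 members to bounds.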
